A study of Mus musculus with 12 samples.

Results

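The comparison described here is that of control C2C12 cells before differentiation and after 5 days of it. It rests on 6 of the 12 libraries of the study, the 3 labelled wild type at day 0 (WT_0d) and the 3 labelled wild type at day 5 (WT_5d), and on every gene of the deposited table, taken by its Ensembl identifier. C2C12 is a line of mouse myoblasts, the precursor cells of skeletal muscle. The other 6 libraries came from C2C12 cells that overexpressed PPARγ, a nuclear receptor known for driving the formation of fat cells, and they are used only where the change over the 5 days was tested for a difference between the cell types. The labels name no other treatment of either WT group. They call both wild type, the library names carry the name of the PB-IP vector, and the design text calls the controls uninduced cells. The methods give a PiggyBac vector and puromycin selection for the PPARγ/+ cells, and the sources used here do not say whether the control cells passed through the same selection or came from 1 clone. The stated medium held fetal bovine serum and leukemia inhibitory factor, and no change to a low-serum medium is stated. Each group is said to have 3 biological replicates, but no source ties the replicates to separate cultures, so p-values measure the spread between these libraries.

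Myoblasts multiply until a small family of transcription factors, led by MyoD and followed by myogenin, takes them out of the cell cycle and turns on the genes of the contractile apparatus. The cells then fuse into myotubes, which assemble sarcomeres, the repeating units of actin and myosin filaments, along with the membranes and calcium stores that couple a nerve signal to contraction. Cells of a culture that do not fuse can persist as single cells beside the myotubes.

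Between 16273494 and 21329917 fragments per WT library lay on genes, and between 11397 and 11565 genes reached 1 FPKM, the fragments of a gene scaled by its exon length and the mapped fragments of the library. Within each group r across genes of log2(FPKM + 0.1) lay between 0.9774 and 0.9796 on 0d. On 5d it was 0.9779 for replicates 1 and 2, but 0.9597 and 0.9684 for replicate 3 with replicates 1 and 2, so replicate 3 of 5d lay apart. Genes are not independent replicates, and r only describes how close the libraries lay. Counts over all genes and over gene lists are therefore given with and without it, and a named gene whose call differs without it is marked as such. Some skeletal muscle markers stood high in the 5d libraries, where *Acta1*, *Actc1*, *Tnnt3* and *Myh3* each reached 85.3 FPKM or more in every library. These were picked from a longer list of muscle markers, and others of it differed. *Myh8* and *Myf6* were low, *Myf5* fell, and *Myod1* and *Mef2c* were not called over all libraries. Lists of markers of other cell types are described after the other groups. In RNA from whole cultures, fewer cells of a type and less RNA per cell cannot be told apart.

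From 0d to 5d, 1450 genes rose and 1242 fell among 16581 tested, or 8.74% and 7.49%. A gene was tested with at least 0.1 FPKM in at least 3 of the 6 libraries, and it was called risen or fallen at a Benjamini-Hochberg adjusted p of at most 0.05 and a change of at least 2-fold by limma on log2(FPKM + 0.1). Fold changes are on this scale, which understates the change of low genes. The median log2 fold change of all genes tested was -0.10, and median-ratio scaling moved it to 0.005. Without replicate 3 of 5d, 1200 genes rose and 1332 fell among 15956 (7.52% and 8.35%), and 1040 of the risen and 1137 of the fallen genes were called in both fits. Leaving out replicate 2 of 5d gave the fewest risen genes, 949. At any size of change, 2580 genes (15.6%) were higher and 4192 (25.3%) lower at an adjusted p of at most 0.05. The libraries of the days did not overlap in 54% of the genes tested. The counts of the gene lists given here are counts of tested members, and of the 73 sarcomere genes listed, for example, 65 were tested. Over all 6 libraries they stand beside 8.74% risen and 7.49% fallen among all genes. A share near these is not read as a result about the list. Where no member of a list fell, none had an unadjusted p of at most 0.05 with a level lower by 2-fold either. limma was the only test run.

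**Figure D1:**
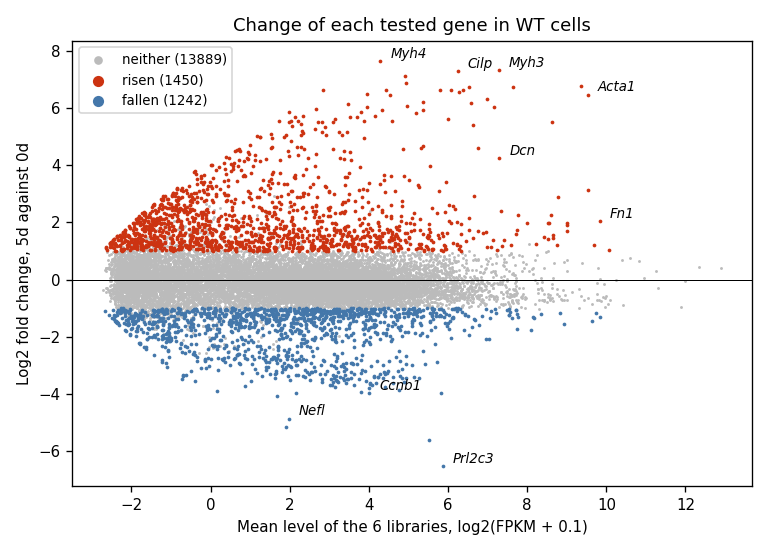
Log2 fold change of 5d against 0d in WT cells (y axis) against the mean level of the 6 libraries as log2(FPKM + 0.1) (x axis), one point per tested gene, with the 1450 risen genes in red, the 1242 fallen genes in blue and the others in grey. *Myh4* and *Myh3* lie at the top, *Prl2c3* and *Nefl* near the bottom, and highly expressed *Acta1* and *Fn1* lie on the right of the risen genes.

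The transcription factors of the muscle programme moved unevenly. Values are given in the order of replicates 1, 2 and 3. Myogenin (*Myog*), which acts late in the programme, stood at 2.69, 15.7 and 1.47 FPKM on 0d and 271, 215 and 90.01 FPKM on 5d. The groups did not overlap, replicate 2 was the highest library of 0d and replicate 3 the lowest of 5d, and the gene rose (log2 fold change 5.40 ± 0.85 (SE), adjusted p = 0.00297). *Rbm24*, a splicing factor of muscle, rose as well (0.128, 0.752 and 0.121 FPKM on 0d and 10.2, 12.4 and 5.04 FPKM on 5d, log2 fold change 4.64, adjusted p = 0.00127). *Myod1* stood at 13.3, 21.5 and 6.57 FPKM on 0d and 34.9, 41.5 and 19.9 FPKM on 5d. Its highest library of 0d overlapped the lowest of 5d, and it was not called (log2 fold change 1.31 ± 0.45 (SE), adjusted p = 0.0562). It was called without replicate 2 of 0d (1.70, adjusted p = 0.0231) or replicate 3 of 5d (1.62, adjusted p = 0.0277). *Mef2c*, a partner of the myogenic factors, stood at 0.131, 0.265 and 0.0742 FPKM on 0d and 3.50, 2.23 and 0.212 FPKM on 5d, where replicate 3 of 5d lay within the range of 0d. It was not called over all 6 libraries (adjusted p = 0.0598), but it was without replicate 3 of 5d (3.57, adjusted p = 0.000842). *Myf5*, which marks undifferentiated myoblasts and reserve cells, stood at 11.3, 13.2 and 11.6 FPKM on 0d and 5.96, 3.53 and 3.79 FPKM on 5d and fell (log2 fold change -1.46 ± 0.20 (SE), adjusted p = 0.00171). *Myf6* stayed under 1 FPKM in every library. Of 27 tested members of the list of myogenic regulators 5 rose (18.5%, against 8.74% of all genes) and 2 fell (7.41%, against 7.49%). The share fallen thus lay near that of all genes, and the median log2 fold change was 0.33. The count of risen genes was 3 without replicate 1 of 0d and 3 without replicate 2 of 5d, and that of fallen genes was 1 without replicate 3 of 0d and 1 without replicate 2 of 5d.

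Of the proteins that hold the programme back, *Id2*, which binds the partners of MyoD, stood at 39.2, 45.4 and 43.3 FPKM on 0d and 11.4, 11.3 and 15.4 FPKM on 5d and fell (log2 fold change -1.75 ± 0.14 (SE), adjusted p = 0.000217), with no overlap between the groups. *Id1* was lower in each library of 5d but short of 2-fold (34.3, 33.9 and 31.7 FPKM on 0d and 17, 15.2 and 19.8 FPKM on 5d, log2 fold change -0.95, adjusted p = 0.000884), and it passed without replicate 3 of 5d (-1.05, adjusted p = 0.000339). *Id3* stood at 68.3, 65 and 62.4 FPKM on 0d and 19.9, 29.2 and 74.9 FPKM on 5d, where replicate 3 of 5d was the highest of the 6 libraries and the gene was not called, while without replicate 3 of 5d (-1.43, adjusted p = 0.000993) it was. *Hes6*, a bHLH factor that promotes differentiation, rose (12.9, 12 and 10.7 FPKM on 0d and 59.9, 54.9 and 31.9 FPKM on 5d, log2 fold change 1.98, adjusted p = 0.000958). The Notch receptor *Notch3* was not called (log2 fold change -0.20, adjusted p = 0.602). Of 24 tested members of this list 5 rose (20.8%, against 8.74% of all genes) and 4 fell (16.7%, against 7.49%). The count of risen genes was 3 without replicate 3 of 5d.

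Sarcomere genes rose as a group. Of 65 tested members 55 rose and none fell, against 8.74% risen among all genes, with a median log2 fold change of 4.03. Without replicate 3 of 5d 57 of 61 rose with a median of 4.71. Their summed FPKM was 988, 1220.5 and 850.1 FPKM on 0d and 12146, 8999 and 3002 FPKM on 5d. All libraries of 5d lay above all of 0d, yet replicate 3 of 5d held far less than replicates 1 and 2. In the thick filament the embryonic myosin heavy chain *Myh3* had the highest level on 5d among the heavy chains named here, with 0.706, 7.72 and 0.435 FPKM on 0d and 527, 307 and 87.9 FPKM on 5d (log2 fold change 7.34 ± 1.09 (SE), adjusted p = 0.00236). *Myh1* and *Myh4*, heavy chains of fast adult fibres, reached 60.5 ± 36.1 and 38.9 ± 30.1 FPKM (SD, n = 3) on 5d, and the neonatal *Myh8* reached 2.38 ± 2.20 FPKM. These genes are close relatives, and reads that fit more than one of them may have been split or lost in counting. The light chain *Mylpf* stood at 5.92, 42 and 3.58 FPKM on 0d and 2094, 1426 and 394 FPKM on 5d (log2 fold change 6.76 ± 0.99 (SE), adjusted p = 0.00225). Replicate 2 of 0d held more *Mylpf* than its 2 companions, as it did for most sarcomere genes named here.

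In the thin filament the skeletal actin *Acta1* stood at 7.95, 58.6 and 5.40 FPKM on 0d and 2156, 1725 and 491 FPKM on 5d (log2 fold change 6.48 ± 0.95 (SE), adjusted p = 0.00231), and the cardiac actin *Actc1*, expressed in developing skeletal muscle, at 1.18, 8.26 and 0.908 FPKM on 0d and 325, 151 and 85.3 FPKM on 5d (log2 fold change 6.19, adjusted p = 0.00175). For both, the 3 libraries of 5d lay above those of 0d, replicate 3 was the lowest of 5d and replicate 2 the highest of 0d. The coding sequences of the actins are nearly alike, so reads shared between them are uncertain. *Tnnt3*, the fast troponin T, rose from 4.09 ± 4.18 to 392 ± 249.5 FPKM (SD, n = 3; log2 fold change 6.73, adjusted p = 0.00109), and *Tnnc1*, the slow troponin C, from 15.4 ± 8.50 to 780.4 ± 488 FPKM (log2 fold change 5.51, adjusted p = 0.00088). *Ttn*, the titin spring that spans the sarcomere from its Z-disc to its M-band, stood at 0.442, 1.15 and 0.251 FPKM on 0d and 18.2, 13.1 and 3.64 FPKM on 5d (log2 fold change 3.96 ± 0.68 (SE), adjusted p = 0.00418).

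Genes that couple the surface membrane to calcium release rose together with the filaments. Of 31 tested 24 rose and none fell, with a median log2 fold change of 2.54, and leaving out 1 library at a time gave 18 to 23. *Cacna1s*, the voltage sensor, stood at 0.0551, 0.430 and 0.0593 FPKM on 0d and 14.8, 11.1 and 3.20 FPKM on 5d (log2 fold change 5.12, adjusted p = 0.00161). *Ryr1*, the release channel of the calcium store, stood at 0.637, 2.21 and 0.312 FPKM on 0d and 27.4, 24.4 and 6.76 FPKM on 5d (log2 fold change 4.23, adjusted p = 0.00475), and *Atp2a1*, the pump that refills the store in fast fibres, at 0.638, 2.46 and 0.547 FPKM on 0d and 111, 80.1 and 24.3 FPKM on 5d (log2 fold change 5.81 ± 0.70 (SE), adjusted p = 0.00107). In each of these the groups did not overlap, as in 54% of all genes tested, and replicate 3 of 5d was the lowest of its group. Both calsequestrins, which bind calcium in the store, were among the 12 genes that rose most, *Casq1* from 0.242 ± 0.120 to 42.8 ± 32 FPKM and *Casq2* from 1.22 ± 0.990 to 134 ± 88 FPKM.

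At the neuromuscular synapse 11 of 15 tested genes rose and none fell (median log2 fold change 1.75). The count was 7 without replicate 1 of 0d, 7 without replicate 3 of 0d and 6 without replicate 2 of 5d. *Chrng*, the fetal subunit of the acetylcholine receptor, stood at 0.619, 2.65 and 0.529 FPKM on 0d and 118, 102 and 22.8 FPKM on 5d (log2 fold change 5.92 ± 0.78 (SE), adjusted p = 0.00147). The kinase *Musk*, which clusters the receptors, stood at 3.06, 4.50 and 2.48 FPKM on 0d and 9.73, 9.28 and 5.63 FPKM on 5d and rose less (log2 fold change 1.27, adjusted p = 0.011). *Chrna1*, the subunit that binds acetylcholine, was already at 27.8, 46 and 21 FPKM on 0d and 176, 153 and 57.5 FPKM on 5d, and its call (log2 fold change 1.95, adjusted p = 0.0154) was lost without replicate 1 of 0d (1.89, adjusted p = 0.0558), replicate 3 of 0d (1.69, adjusted p = 0.0541) or replicate 2 of 5d (1.74, adjusted p = 0.0546). The anchor protein *Rapsn* did not reach 2-fold (17.1, 22.5 and 12.9 FPKM on 0d and 31.3, 33 and 31 FPKM on 5d, log2 fold change 0.89, adjusted p = 0.00938), though it was called without replicate 2 of 0d (1.09, adjusted p = 0.00344).

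The fusion genes were among those with the largest changes. *Mymk* (myomaker), a membrane protein that myoblasts need for fusion, stood at 1.57, 10.7 and 1.0 FPKM on 0d and 336, 321 and 92.6 FPKM on 5d (log2 fold change 6.32 ± 0.90 (SE), adjusted p = 0.00202), and *Mymx* (myomixer), its small partner, at 0.211, 1.10 and 0.0443 FPKM on 0d and 79.6, 76.1 and 24.1 FPKM on 5d (log2 fold change 7.13 ± 0.81 (SE), adjusted p = 0.000846). Each library of 5d was above each of 0d, replicates 1 and 2 of 5d were close together and replicate 3 was lower. Over the whole list of fusion, adhesion, dystrophin complex and membrane repair genes, 10 of 36 rose and 1 fell, with a median of 0.35. These were 27.8% and 2.78%, against 8.74% and 7.49% of all genes. The count of fallen genes was 2 without replicate 1 of 0d and 2 without replicate 3 of 5d. The adhesion molecule *Cdh15* (M-cadherin) was present at 34.4, 48.2 and 22.6 FPKM on 0d and 64.6, 60.7 and 23.6 FPKM on 5d and was not called. *Dysf*, which reseals torn membrane, rose (1.96, 1.75 and 1.80 FPKM on 0d and 7.90, 7.45 and 3.84 FPKM on 5d, log2 fold change 1.68, adjusted p = 0.00327), and *Anxa2*, an annexin, fell (359, 428 and 436 FPKM on 0d and 153, 169 and 164 FPKM on 5d, log2 fold change -1.33, adjusted p = 0.000293).

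The promoters of 3 of these genes are shown because they hold the E-box CAGCTG, the sequence that MyoD and myogenin are known to prefer. They were picked after the matches were seen. Each line gives the 200 bases before the RefSeq start site (GRCm38.p6), 5′ to 3′ on the strand of the gene, with CAGCTG in capitals, from chr1:87205611-87205810, plus strand, for *Chrng*, from chr7:127211408-127211607, plus strand, for *Mylpf* and from chr7:126463074-126463273, minus strand, for *Atp2a1*.
Chrng: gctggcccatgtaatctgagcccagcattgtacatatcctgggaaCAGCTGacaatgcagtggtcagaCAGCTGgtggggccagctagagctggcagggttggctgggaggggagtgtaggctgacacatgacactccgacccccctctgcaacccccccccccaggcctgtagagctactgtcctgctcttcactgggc
Mylpf: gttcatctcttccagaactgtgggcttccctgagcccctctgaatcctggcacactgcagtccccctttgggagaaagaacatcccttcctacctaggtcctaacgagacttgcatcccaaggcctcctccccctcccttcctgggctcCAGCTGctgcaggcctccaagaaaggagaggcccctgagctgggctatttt
Atp2a1: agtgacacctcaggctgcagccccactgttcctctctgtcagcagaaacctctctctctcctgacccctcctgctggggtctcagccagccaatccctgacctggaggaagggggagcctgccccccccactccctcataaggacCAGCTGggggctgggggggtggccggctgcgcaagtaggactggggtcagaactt
The promoter of *Chrng* held 2 copies, which begin 155 and 132 bases before the start, and those of *Mylpf* and *Atp2a1* held 1 each, at 51 and 55 bases before it. In windows from 250 bases before to 50 after the start, on both strands, CAGCTG was found in 23 of the 52 sarcomere genes with a promoter in the table (44.2%), in 18.3% of the tested genes with one and in 16.3% of all 32851 promoters. The core of the MEF2 site, CTA and TAG with 4 bases of any kind between them, was found in 21.2%, 3.8% and 3.7%. Of collagen promoters 18.5% held this core too. In muscle metabolism CAGCTG was found in 35.3%. Fewer than 80% of the other muscle lists matched a promoter, so their shares are not read, but they ran from 1 of 20 myogenic regulators (5.0%) and 4 of 25 fusion and membrane genes (16%) to 4 of 9 synapse genes (44.4%). Only 64.6% of the tested genes matched a promoter, and a match of letters is not a bound site.

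**Figure D2:**
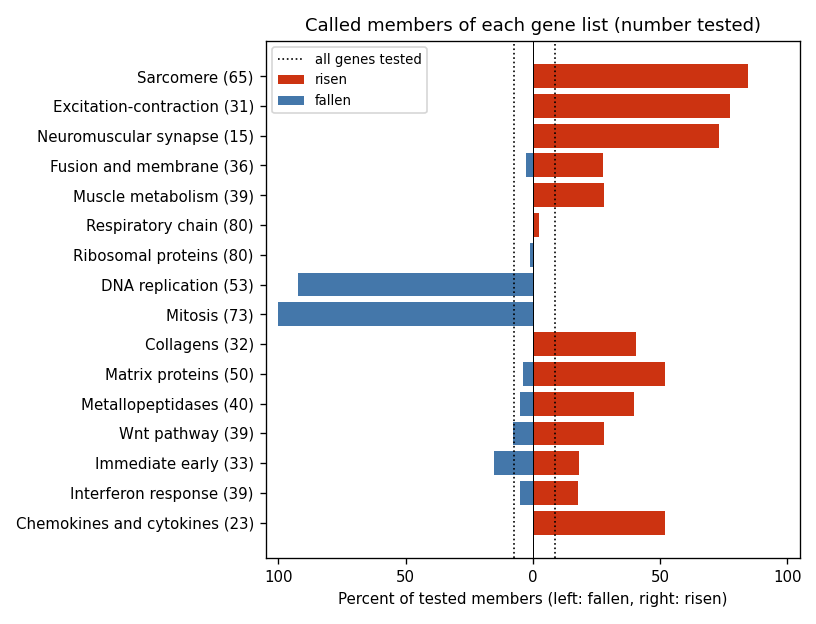
Share of the tested members of 16 gene lists that rose (red, to the right) or fell (blue, to the left) from 0d to 5d in WT cells, in percent, with the number tested in brackets and dotted lines at the shares of all genes tested (8.74% and 7.49%). Sarcomere, excitation-contraction and synapse genes reach furthest to the right, and all 73 mitosis genes lie on the left.

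The counts of these and the following lists were also taken without replicate 3 of 5d. Among all genes tested then, 7.52% rose and 8.35% fell. The fallen counts of 4 of 48 growth factors and 3 of 38 Wnt genes, for example, lay near that share. In that fit the members that rose and fell were 22 and 0 of 29 in excitation and contraction, 11 and 0 of 14 at the synapse and 11 and 2 of 35 in fusion and membrane. They were 12 and 0 of 37 in muscle metabolism, 3 and 0 of 80 in the respiratory chain and 0 and 3 of 80 among ribosomal proteins. Of the division lists, they were 0 and 73 of 73 in mitosis, 0 and 49 of 53 in replication, 2 and 9 of 24 among regulators of cycle entry, 7 and 2 of 31 among p53 targets and 2 and 13 of 40 among histones. For myogenic regulators they were 7 and 2 of 27, for repressors of differentiation 3 and 5 of 24 and for reserve cell genes 4 and 2 of 15. Outside the cell they were 14 and 2 of 34 among metallopeptidases, 7 and 0 of 11 among fibroblast markers, 11 and 4 of 48 among growth factors and 10 and 3 of 38 in the Wnt list. Immediate early genes gave 7 and 8 of 33, interferon genes 6 and 2 of 38 and epidermal markers 0 and 5 of 7. Neural and Schwann cell markers gave 0 and 4 of 10, and cartilage and bone markers 0 and 1 of 8. Macrophage markers gave 1 and 0 of 3, adipocyte markers 0 and 1 of 6 and proliferins 0 and 3 of 3.

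The enzymes of muscle energy supply were mostly among the genes that did not reach 2-fold. Of 39 tested members 11 rose and none fell by 2-fold, and at any size of change 16 were higher (41%, against 15.6% of all genes) and 10 lower (25.6%, against 25.3%) at an adjusted p of at most 0.05. The median log2 fold change was 0.17. Muscle creatine kinase *Ckm* stood at 0.182, 1.34 and 0.244 FPKM on 0d and 67.8, 39.2 and 12 FPKM on 5d (log2 fold change 5.94 ± 0.80 (SE), adjusted p = 0.00161), muscle glycogen phosphorylase *Pygm* at 0.817, 0.973 and 0.577 FPKM on 0d and 31.1, 25.6 and 8.84 FPKM on 5d (log2 fold change 4.46, adjusted p = 0.000608) and the muscle phosphoglycerate mutase *Pgam2* at 3.01, 2.93 and 2.37 FPKM on 0d and 40.8, 31.2 and 12 FPKM on 5d (log2 fold change 3.13, adjusted p = 0.00162). *Mb*, the oxygen store myoglobin, rose from 1.10 ± 1.18 to 111 ± 79.7 FPKM, although 31.9% of its exonic bases are shared with genes of the other strand. Of enzymes chosen after their values were seen, the widely expressed enolase *Eno1* went from 220.4 ± 14.6 to 117 ± 7.72 FPKM (log2 fold change -0.91, adjusted p = 0.00067) and pyruvate kinase *Pkm* from 1028 ± 89.7 to 564 ± 22.1 FPKM (log2 fold change -0.86, adjusted p = 0.00247), both lower in all 3 libraries of 5d yet short of 2-fold. The muscle enolase *Eno3* stood at 137, 146 and 187 FPKM on 0d and 238, 211 and 98.1 FPKM on 5d, with replicate 3 of 5d the lowest of all 6, and was not called (log2 fold change 0.13, adjusted p = 0.777).

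Nuclear genes of the respiratory chain and ATP synthase moved little. Of 80 tested, 2 rose, the muscle isoforms *Cox8b* (0.142, 0.438 and 0 FPKM on 0d and 11.6, 13.5 and 2.91 FPKM on 5d, log2 fold change 5.05, adjusted p = 0.00253) and *Cox6a2* (log2 fold change 3.86, adjusted p = 0.0173). The call of *Cox6a2* was lost without replicate 3 of 0d (3.56, adjusted p = 0.0592) or replicate 2 of 5d (3.44, adjusted p = 0.0602). The common subunits *Cox5a* and *Ndufa4* had log2 fold changes of -0.70 and -0.61 (adjusted p = 0.00127 and 0.00348). At any size of change 28 of the 80 members were lower, against 25.3% of all genes. Cytosolic ribosomal protein genes were lower as a group by less than 2-fold. Of 80 tested 70 were lower at an adjusted p of at most 0.05 and none higher, with a median log2 fold change of -0.58, or -0.48 relative to the median of all genes. These genes have many near-identical copies elsewhere in the genome, so single values are uncertain. Over all 6 libraries only *Rps2* fell by 2-fold (297, 269 and 331 FPKM on 0d and 124, 138 and 126 FPKM on 5d, log2 fold change -1.20, adjusted p = 0.000363). *Rplp0*, a protein of the ribosomal stalk, stood at 1230.1, 1149 and 1278 FPKM on 0d and 678, 818 and 882 FPKM on 5d. The count fallen was 2 without replicate 1 of 0d, 3 without replicate 2 of 0d, 2 without replicate 2 of 5d and 3 without replicate 3 of 5d.

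Nearly all tested genes of the mitosis and replication lists fell. All 73 genes of the mitosis list were tested and fell, against 7.49% of all genes, in all 6 fits that left out 1 library as well, with a median log2 fold change of -3.31. No gene of the list overlapped between 0d and 5d, as was so for 54% of all genes tested. Their summed FPKM was 1572, 2045 and 1854 FPKM on 0d and 259, 228 and 187 FPKM on 5d, so replicate 3 of 5d, the lowest of its group in the sarcomere list, was the lowest here too. *Ccnb1*, the cyclin that takes cells into mitosis, stood at 26.9, 34.3 and 29.2 FPKM on 0d and 2.54, 1.72 and 1.35 FPKM on 5d (log2 fold change -3.98 ± 0.22 (SE), adjusted p = 9.09e-05), and its kinase *Cdk1* at 38.1, 51.5 and 43.5 FPKM on 0d and 7.08, 6.59 and 6.53 FPKM on 5d (log2 fold change -2.69 ± 0.12 (SE), adjusted p = 6.86e-05). *Cdc20*, which starts the destruction of cyclin B, stood at 94.3, 121 and 101 FPKM on 0d and 7.42, 6.35 and 6.28 FPKM on 5d (log2 fold change -3.96 ± 0.12 (SE), adjusted p = 3.85e-05). In these genes the libraries of a day lay close together and the days far apart. The polo kinase *Plk1* and the checkpoint kinase *Bub1b* were among the 12 genes that fell most, from 50.3 ± 5.49 to 3.44 ± 0.882 FPKM and from 29.7 ± 4.27 to 2.07 ± 0.624 FPKM (SD, n = 3). *Mki67*, the Ki-67 antigen of cycling cells, went from 50.1 ± 9.42 to 4.87 ± 1.56 FPKM and *Aurkb*, the Aurora kinase of the kinetochore, from 22.2 ± 2.42 to 2.16 ± 0.435 FPKM.

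In the replication list 49 of 53 genes fell, 48 to 49 when 1 library was left out, with a median of -2.05. *Mcm5* of the helicase that opens replication origins stood at 32.3, 36.6 and 46.8 FPKM on 0d and 4.21, 4.44 and 2.93 FPKM on 5d (log2 fold change -3.29 ± 0.20 (SE), adjusted p = 0.000106). The sliding clamp *Pcna* stood at 55.8, 66 and 70.4 FPKM on 0d and 18, 17.1 and 17 FPKM on 5d (log2 fold change -1.87 ± 0.10 (SE), adjusted p = 8.65e-05), and *Rrm2*, the small subunit of ribonucleotide reductase, at 86.3, 124 and 116 FPKM on 0d and 29.8, 29.8 and 20.1 FPKM on 5d (log2 fold change -2.04, adjusted p = 0.000492). *Uhrf1*, which keeps DNA methylation after replication, had one of the larger changes of the list (33.9, 40.8 and 45.2 FPKM on 0d and 4.18, 4.81 and 3.30 FPKM on 5d, log2 fold change -3.26, adjusted p = 7.8e-05). None of these 4 genes overlapped between the days, as was so for 54% of all genes tested.

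Promoters of 3 division genes are shown because they hold a short element known from cell cycle genes, again picked after the matches were seen. For *Cdc20* (chr4:118437344-118437543, minus strand) and *Cdk1* (chr10:69352913-69353112, minus strand) the capitals mark TTTGAA, the cell cycle genes homology region (CHR) that the DREAM and MuvB complexes bind. For *Mcm5* (chr8:75109309-75109508, plus strand) they mark TTTNNCGC, the core of the E2F site, on both strands.
Cdc20: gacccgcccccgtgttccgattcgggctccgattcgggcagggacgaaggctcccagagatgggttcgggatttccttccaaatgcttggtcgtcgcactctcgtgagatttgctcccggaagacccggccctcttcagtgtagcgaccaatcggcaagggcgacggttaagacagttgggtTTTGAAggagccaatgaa
Cdk1: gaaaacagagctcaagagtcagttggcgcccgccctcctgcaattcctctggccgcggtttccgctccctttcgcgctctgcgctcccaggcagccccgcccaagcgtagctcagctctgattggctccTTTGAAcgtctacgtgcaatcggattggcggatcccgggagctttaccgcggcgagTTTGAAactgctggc
Mcm5: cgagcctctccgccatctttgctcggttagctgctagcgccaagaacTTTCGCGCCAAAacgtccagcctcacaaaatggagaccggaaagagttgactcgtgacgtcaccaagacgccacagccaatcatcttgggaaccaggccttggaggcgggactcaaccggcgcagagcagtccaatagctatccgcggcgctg
The CHR lay 18 bases before the start of *Cdc20* and 71 and 15 before that of *Cdk1*, and the 2 E2F cores of *Mcm5* overlapped, at 153 and 149 bases before the start on opposite strands. TTTGAA was found in 39 of 62 mitosis promoters (62.9%), in 14.0% of those of replication genes, in 14.3% of those of tested genes and in 17.9% of all promoters. The second form of the CHR, TTCGAA, was found in 9.7% of mitosis promoters and 1.6% of all. TTTNNCGC was found in 20 of 43 replication promoters (46.5%), in 21% of mitosis promoters, in 9.6% of those of tested genes and in 5.2% of all. The CCAAT box was found in 67.7% of mitosis and 62.8% of replication promoters, against 42.5% of those of tested genes and 37.4% of all. It is not particular to division genes. In translation and stress genes, of which 1 of 30 rose (3.33%) and 3 fell (10%), it was found in 80.8% of promoters. CAGCTG, in turn, was found in 16.1% of mitosis promoters.

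Regulators of entry into the cycle, a list that holds inhibitors as well as the cyclins, kinases and E2F factors they act on, fell more often than they rose. *Cdkn1a*, the inhibitor p21 that MyoD is known to induce, stood at 84.6, 78.8 and 50.7 FPKM on 0d and 481, 419 and 189 FPKM on 5d (log2 fold change 2.27 ± 0.37 (SE), adjusted p = 0.00354), with every library of 5d above every one of 0d and replicate 3 of 5d the lowest of its group. *Ccnd1*, the cyclin that drives entry into the cycle, fell (63.7, 83.5 and 74.3 FPKM on 0d and 19.6, 21.5 and 23 FPKM on 5d, log2 fold change -1.78, adjusted p = 0.000136), while its relative *Ccnd3*, named after its values were seen, rose (6.32, 8.13 and 6.70 FPKM on 0d and 28.1, 21.7 and 10.8 FPKM on 5d, log2 fold change 1.41, adjusted p = 0.0141). The call of *Ccnd3* was lost without replicate 1 of 0d (1.33, adjusted p = 0.054) or replicate 2 of 5d (1.30, adjusted p = 0.0511). *Rb1*, the retinoblastoma protein, was higher but short of 2-fold (6.44, 6.60 and 5.44 FPKM on 0d and 12.6, 10.5 and 8.32 FPKM on 5d, log2 fold change 0.74, adjusted p = 0.0116), and *E2f1* was lower and short of it (log2 fold change -0.49, adjusted p = 0.00578). *E2f7*, an E2F repressor expressed in cycling cells, fell (4.52, 5.69 and 6.26 FPKM on 0d and 0.649, 0.443 and 0.341 FPKM on 5d, log2 fold change -3.30, adjusted p = 0.000164). Over the list of inhibitors and drivers, 2 of 24 tested members rose (8.33%, against 8.74% of all genes) and 10 fell (41.7%, against 7.49%). The share risen thus lay near that of all genes. The count risen was 1 without replicate 1 of 0d and 1 without replicate 2 of 5d. Among p53 and its targets 7 of 31 rose (22.6%, against 8.74% of all genes) and 0 fell (against 7.49%). *Gadd45a*, a stress-induced cell cycle inhibitor, stood at 18, 17.4 and 9.35 FPKM on 0d and 58.8, 51.6 and 54.4 FPKM on 5d (log2 fold change 1.93, adjusted p = 0.00128) and the death receptor *Fas* at 2.20, 2.99 and 2.66 FPKM on 0d and 14.2, 15.8 and 21.4 FPKM on 5d (log2 fold change 2.65, adjusted p = 0.000149). *Trp53* itself, which encodes p53, was lower and not called (38.3, 34.6 and 35.2 FPKM on 0d and 16.4, 19.4 and 21.3 FPKM on 5d, log2 fold change -0.93, adjusted p = 0.00107), but it passed without replicate 3 of 5d (-1.01, adjusted p = 0.000682).

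**Figure D3:**
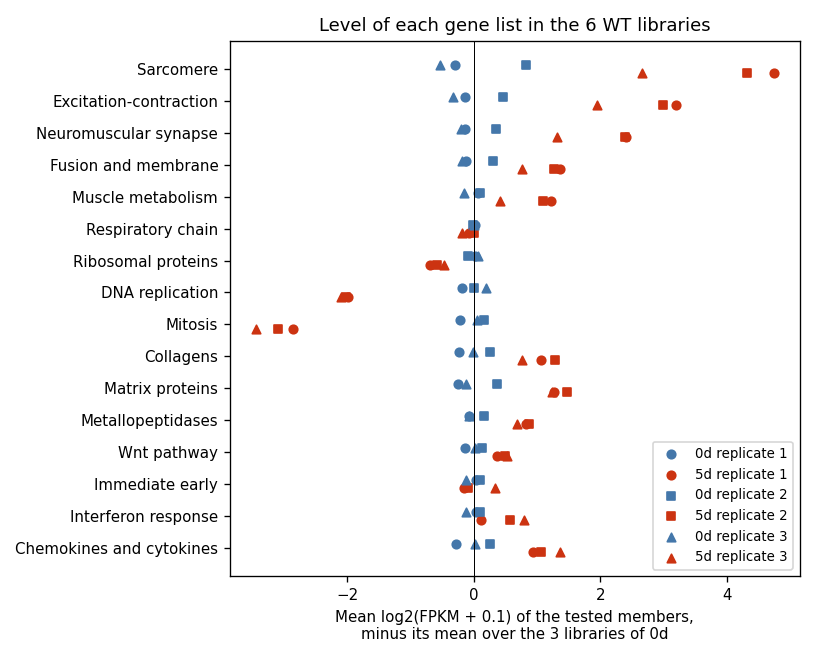
Mean log2(FPKM + 0.1) of the tested members of 16 gene lists in each of the 6 WT libraries, less its mean over the 3 libraries of 0d (x axis), with 0d in blue, 5d in red and a marker for each replicate number. Replicate 3 of 5d (red triangle) lies below the other libraries of 5d in the 5 muscle lists at the top and above them in the immediate early, interferon and chemokine lists.

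Many extracellular matrix genes rose from 0d to 5d. Of 32 tested collagen chains 13 rose and none fell, with a median log2 fold change of 0.80, and of 50 other matrix genes 26 rose and 2 fell, with a median of 1.25. Without replicate 3 of 5d the counts were 13 of 29 and 26 of 49 risen. *Col3a1*, a fibrillar collagen, stood at 177, 249.8 and 208 FPKM on 0d and 817, 974 and 634 FPKM on 5d (log2 fold change 1.93 ± 0.20 (SE), adjusted p = 0.000616). *Col1a1*, the main chain of type I collagen, stood at 65.2, 52.7 and 76 FPKM on 0d and 151, 125 and 34.8 FPKM on 5d, with replicate 3 of 5d below all the others, and was not called (log2 fold change 0.44, adjusted p = 0.536). Without replicate 3 of 5d (1.10, adjusted p = 0.00303) it was. *Fn1*, fibronectin, stood at 333, 433 and 313 FPKM on 0d and 1579, 1412 and 1388 FPKM on 5d (log2 fold change 2.03 ± 0.16 (SE), adjusted p = 0.000234), and the proteoglycan decorin (*Dcn*) at 12.3, 36.7 and 7.67 FPKM on 0d and 306, 363 and 219 FPKM on 5d (log2 fold change 4.25 ± 0.54 (SE), adjusted p = 0.00127). *Fn1* was nearly alike in the 3 libraries of 5d, in contrast to *Col1a1*.

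*Lum*, the proteoglycan lumican, had 3 fragments or fewer in each library of 0d and 147, 329 and 118 on 5d, which makes it at least 69.5-fold higher against 3 fragments per library. It was not tested in any fit without a library of 5d. *Lox*, which crosslinks collagen, stood at 82.4, 139.5 and 116 FPKM on 0d and 115, 115 and 121 FPKM on 5d and was not called. Of the metallopeptidases and their inhibitors 16 of 40 rose and 2 fell, and the count risen was 10 without replicate 1 of 5d. *Mmp7* and *Adamts16* were among the risen genes but were not tested in that fit or in any other without a library of 5d. *Mmp2*, which degrades basement membrane collagen, stood at 115, 182 and 109.9 FPKM on 0d and 463, 744 and 730.0 FPKM on 5d (log2 fold change 2.26 ± 0.26 (SE), adjusted p = 0.000903), while the inhibitor *Timp1* was not called (211, 277 and 201 FPKM on 0d and 202, 182 and 149.8 FPKM on 5d). Of the markers of fibroblasts and fibro-adipogenic cells 8 of 13 tested rose, and their summed FPKM went from between 568 and 754 to between 1529.8 and 2003. These markers share members with the matrix lists. *Pdgfra*, their receptor tyrosine kinase, stood at 3.85, 4.28 and 3.69 FPKM on 0d and 7.04, 10.3 and 13.2 FPKM on 5d (log2 fold change 1.30, adjusted p = 0.0039), and the defining marker *Thy1* was listed at 0 in all 6 libraries. The part of other cells in the matrix genes was not tested.

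Both IGF ligands, which drive growth of muscle, rose among the secreted growth factors. *Igf1* stood at 0.573, 2.40 and 0.903 FPKM on 0d and 20.2, 27.4 and 18 FPKM on 5d (log2 fold change 4.18 ± 0.46 (SE), adjusted p = 0.000735) and *Igf2* at 1.0, 4.36 and 0.385 FPKM on 0d and 40.3, 26.8 and 7.99 FPKM on 5d (log2 fold change 3.95 ± 0.89 (SE), adjusted p = 0.0122), though 64.5% of the exonic bases of *Igf2* are shared with overlapping genes. The binding protein *Igfbp2* fell (85, 131 and 73 FPKM on 0d and 29.4, 30.02 and 30.2 FPKM on 5d, log2 fold change -1.64, adjusted p = 0.00119), and *Igfbp5* was not called (log2 fold change 1.03, adjusted p = 0.154) except without replicate 2 of 0d (1.53, adjusted p = 0.0361). *Fst*, follistatin, which blocks myostatin and activins, rose (2.03, 3.82 and 2.20 FPKM on 0d and 24.8, 17.3 and 12.7 FPKM on 5d, log2 fold change 2.72, adjusted p = 0.000847), while *Mstn*, myostatin, was at or near 0 in all 6 libraries. *Fgf21* had 3 fragments or fewer in each library of 0d and 330, 173 and 40 on 5d, at least 58.7-fold more. *Fgf21* was not tested in any fit without a library of 5d. Over the list 12 of 50 rose (24%, against 8.74% of all genes) and 3 fell (6%, near the 7.49% of all genes). *H19*, the imprinted RNA next to *Igf2*, stood at 106, 269.8 and 58.3 FPKM on 0d and 2306, 1343 and 369.9 FPKM on 5d (log2 fold change 3.14, adjusted p = 0.0175), but its call was lost without replicate 1 of 0d (3.06, adjusted p = 0.0614), replicate 3 of 0d (2.63, adjusted p = 0.058) or replicate 2 of 5d (2.96, adjusted p = 0.0584).

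Genes of several signalling groups were highest in replicate 3 of 5d, the library with the least sarcomere RNA of its group. Of the Wnt list 11 of 39 rose (28.2%, against 8.74% of all genes) and 3 fell (7.69%, against 7.49%). The share fallen thus lay near that of all genes, and the count fallen was 5 without replicate 2 of 0d. *Sfrp2*, a secreted Wnt modulator, stood at 84.5, 158 and 69.1 FPKM on 0d and 431, 786 and 1086 FPKM on 5d (log2 fold change 2.88 ± 0.41 (SE), adjusted p = 0.00204) and *Fzd1*, a Wnt receptor, at 19.5, 28.6 and 22.6 FPKM on 0d and 42.4, 52.5 and 69.8 FPKM on 5d (log2 fold change 1.20, adjusted p = 0.00451). *Wnt7b* fell (1.51, 1.99 and 1.12 FPKM on 0d and 0.311, 0.164 and 0.0199 FPKM on 5d, log2 fold change -2.76, adjusted p = 0.004), and *Axin2*, a target of the pathway, was not called (log2 fold change 0.60, adjusted p = 0.109). Of the chemokines and cytokines 12 of 23 rose (52.2%, against 8.74% of all genes) and none fell, and 8 of 21 rose without replicate 3 of 5d. The count was 7 without replicate 1 of 0d and 6 without replicate 2 of 5d, and their summed FPKM was 198, 294 and 284 FPKM on 0d and 325, 475 and 917 FPKM on 5d. *Ccl8*, which attracts monocytes, stood at 1.92, 4.03 and 1.61 FPKM on 0d and 28.1, 49.3 and 164 FPKM on 5d (log2 fold change 4.66 ± 0.65 (SE), adjusted p = 0.00182), and *Cxcl12*, a ligand that guides muscle precursors, at 25.1, 34.4 and 22.4 FPKM on 0d and 60.1, 120.4 and 182 FPKM on 5d (log2 fold change 2.03 ± 0.39 (SE), adjusted p = 0.00647). *Ccl2* was not called (9.65, 14.1 and 19.9 FPKM on 0d and 8.28, 11.5 and 26 FPKM on 5d).

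Immediate early genes, the first to answer serum and stress, moved in both directions. Of 33 tested 6 rose (18.2%, against 8.74% of all genes) and 5 fell (15.2%, against 7.49%). The count fallen was 8 without replicate 3 of 5d. *Fos* stood at 3.31, 2.92 and 3.05 FPKM on 0d and 7.81, 15.3 and 52.7 FPKM on 5d (log2 fold change 2.54 ± 0.62 (SE), adjusted p = 0.0162), where the libraries of 0d were alike and those of 5d were spread widely, and its call was lost without replicate 1 of 0d (2.59, adjusted p = 0.0511). *Egr1* stood at 53.6, 57.2 and 55.7 FPKM on 0d and 130.5, 166 and 241 FPKM on 5d (log2 fold change 1.64, adjusted p = 0.0013) and *Junb* at 102, 95.4 and 95.8 FPKM on 0d and 179.6, 296 and 491 FPKM on 5d (log2 fold change 1.60, adjusted p = 0.00849). *Fosl1* fell (46.5, 48.2 and 41.4 FPKM on 0d and 9.84, 10.5 and 14.5 FPKM on 5d, log2 fold change -1.97, adjusted p = 0.000212), with 57.2% of its exonic bases shared with a gene of the other strand, and *Myc* was lower short of 2-fold (28.8, 32.8 and 27.7 FPKM on 0d and 13.3, 15.7 and 25.9 FPKM on 5d, log2 fold change -0.76, adjusted p = 0.0396) and was called without replicate 3 of 5d (-1.03, adjusted p = 0.000916). In the interferon and antigen presentation list 7 of 39 rose (17.9%, against 8.74% of all genes) and 2 fell (5.13%, near the 7.49% of all genes). The count fallen was 1 in each fit that left out 1 library other than replicate 3 of 5d. *H2-T23*, a class I antigen, stood at 7.42, 11.4 and 9.81 FPKM on 0d and 22, 26.6 and 42.3 FPKM on 5d (log2 fold change 1.62, adjusted p = 0.00329), while *Ifit1*, which answers interferon, was not called (log2 fold change 0.17, adjusted p = 0.781). Levels of the metallothioneins, named after their values were seen, spread even more on 5d, with *Mt1* at 600.2, 361 and 335 FPKM on 0d and 96.9, 266 and 714 FPKM on 5d. *Mt1* was not called (log2 fold change -0.66, adjusted p = 0.47), but it was without replicate 3 of 5d (-1.38, adjusted p = 0.0476).

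**Figure D4:**
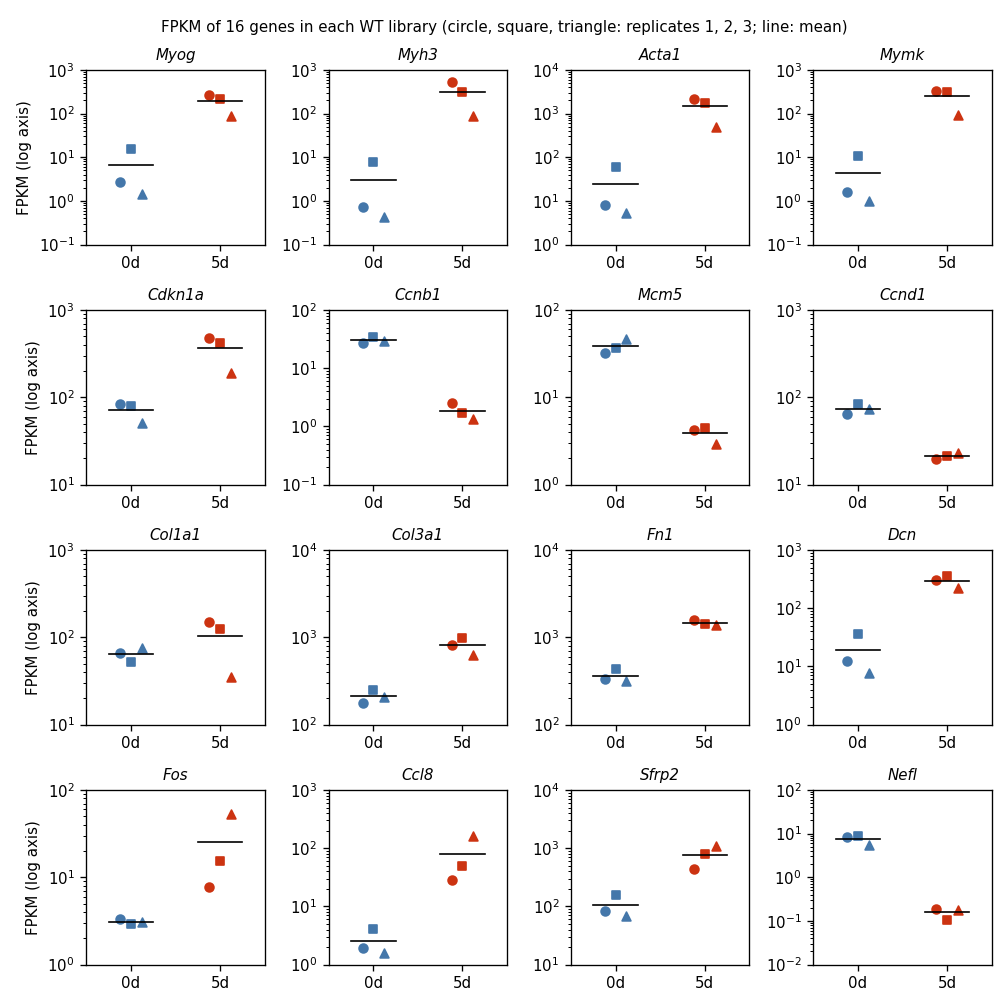
FPKM of 16 genes in each WT library on logarithmic axes, with 0d in blue, 5d in red, circles, squares and triangles for replicates 1, 2 and 3 and a line at the mean of each group. In *Col1a1* replicate 3 of 5d lies under all libraries of 0d, and it is the highest library of 5d for *Fos*, *Ccl8* and *Sfrp2*.

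Some transcripts of 0d were close to 0 on 5d or several times lower. The proliferins, growth factors of the prolactin family made by dividing cells, held 131, 72.9 and 144 FPKM of *Prl2c3* on 0d and 0.785, 0.671 and 2.48 on 5d (log2 fold change -6.53 ± 0.49 (SE), adjusted p = 0.000183). All 3 tested members of the family fell, and since they are near-identical copies their single values are uncertain. The neurofilament subunits *Nefl* (8.27, 8.74 and 5.47 FPKM on 0d and 0.186, 0.107 and 0.182 FPKM on 5d, log2 fold change -4.86 ± 0.24 (SE), adjusted p = 7.8e-05) and *Nefm* (6.30, 6.69 and 4.94 FPKM on 0d and 0.319, 0.323 and 0.167 FPKM on 5d, log2 fold change -4.06, adjusted p = 0.000102) fell as well. Part of the exonic bases of *Nefl*, 32.8%, is shared with *Nefm* on the other strand. The neuronal tubulin *Tubb3* fell (50.4, 52.8 and 33.3 FPKM on 0d and 9.16, 12.2 and 4.30 FPKM on 5d, log2 fold change -2.49, adjusted p = 0.00261), while *Sox10*, which defines Schwann cells, was listed at 0. Of the epidermal list 5 of 8 tested genes fell and 1, *Trp63*, rose. The count fallen was 3 without replicate 1 of 0d, 3 without replicate 2 of 0d and 3 without replicate 3 of 0d. The count risen was 0 without replicate 1 of 5d, 0 without replicate 2 of 5d and 0 without replicate 3 of 5d. *Trp63* was not tested in those fits. It was called in the 3 fits without a library of 0d, with log2 fold changes from 3.69 to 3.92. Those fits kept every library of 5d, where it was high, so they do not check its rise. *Krt10* was not called in any fit that left out 1 library (log2 fold changes from 0.08 to 0.30). *Krt14* stood at 18.6, 15.3 and 22.3 FPKM on 0d and 6.74, 6.81 and 6.69 FPKM on 5d (log2 fold change -1.44, adjusted p = 0.00046) and *Sprr1a*, a protein of the cornified envelope, at 13.7, 11.9 and 14.1 FPKM on 0d and 1.997, 1.16 and 0.817 FPKM on 5d (log2 fold change -3.31, adjusted p = 0.000307). *Vim*, the intermediate filament vimentin, fell (1341, 1311 and 1244 FPKM on 0d and 432, 515 and 644 FPKM on 5d, log2 fold change -1.31, adjusted p = 0.00157), and *Acta2*, the smooth muscle actin found in young myotubes, rose (453, 522 and 504 FPKM on 0d and 1291, 1116 and 1048 FPKM on 5d, log2 fold change 1.22, adjusted p = 0.000905).

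Genes of quiescent muscle stem cells and reserve cells were mostly not called. Of 15 tested 11 had a positive log2 fold change (73.3%, against 43.5% of all genes) and the median was 0.50. By the call rule 3 rose (20%, against 8.74% of all genes) and 1 fell (6.67%, near the 7.49% of all genes). The count fallen was 2 without replicate 1 of 0d and 2 without replicate 3 of 5d. *Pax7*, which defines muscle stem cells, stood near 1 FPKM throughout (0.721, 0.974 and 0.722 FPKM on 0d and 0.871, 1.39 and 1.33 FPKM on 5d) and was not called, nor was *Cd34* (11.2, 16.8 and 19.6 FPKM on 0d and 13.1, 14.3 and 13.8 FPKM on 5d). *Spry1*, an inhibitor of growth factor signalling in quiescent cells, rose (2.91, 8.88 and 2.99 FPKM on 0d and 36.6, 30.5 and 44.3 FPKM on 5d, log2 fold change 3.07, adjusted p = 0.00169). *Pparg*, the gene overexpressed in the other cells of the study, stood at 7.56, 5.10 and 6.92 FPKM on 0d and 3.12, 3.53 and 4.59 FPKM on 5d in WT cells and was lower on 5d, short of 2-fold (log2 fold change -0.78 ± 0.20 (SE), adjusted p = 0.0189). Histone genes fell in 15 of 43 cases (34.9%, against 7.49% of all genes) and rose in 5 (11.6%, against 8.74%). The count fallen was 7 without replicate 1 of 0d, 7 without replicate 2 of 0d and 5 without replicate 3 of 0d, and the count risen was 2 without replicate 2 of 0d, 2 without replicate 3 of 0d, 1 without replicate 2 of 5d and 2 without replicate 3 of 5d. *Hist1h3g*, 1 of the fallen genes, was not tested without a library of 0d, and it was called in the 3 left-out fits that tested it. Those fits kept every library of 0d, where it was high, so they do not check its fall. The fall of the count thus includes genes that left the test. Most histone messages lack the poly(A) tail by which mRNA is usually captured. Among genes of other lists, *Phgdh*, the entry enzyme of serine synthesis, fell (63.8, 51.9 and 70.6 FPKM on 0d and 19.8, 15.5 and 13.7 FPKM on 5d, log2 fold change -1.92, adjusted p = 0.000311), and *Map1lc3a* of the autophagosome rose (29.1, 27 and 25.6 FPKM on 0d and 108, 115 and 102 FPKM on 5d, log2 fold change 1.99, adjusted p = 6.86e-05).

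Markers of other cell types were present at different levels. Of the endothelial list, 12 of 12 listed genes were under 1 FPKM in all 6 libraries, and the summed level was 0.585 to 0.853 FPKM on 0d and 0.413 to 0.637 on 5d, and *Cdh5*, which joins endothelial cells, reached at most 0.0295 FPKM. Of the macrophage and leukocyte list, 13 of 16 listed genes were under 1 FPKM in all 6 libraries, and the summed level was 11.2 to 13.3 FPKM on 0d and 8.62 to 19.2 on 5d. There 1 of 4 tested rose and 0 fell, the leukocyte antigen *Ptprc* reached at most 0.00649 FPKM, and the count risen was 0 without replicate 1 of 0d, 0 without replicate 2 of 0d, 0 without replicate 3 of 0d and 0 without replicate 2 of 5d. Of the adipocyte list, 11 of 18 listed genes were under 1 FPKM in all 6 libraries, and the summed level was 33.8 to 39.1 FPKM on 0d and 25.5 to 45.6 on 5d. There 1 of 7 tested rose and 0 fell, and the count risen was 0 without replicate 2 of 5d and 0 without replicate 3 of 5d. The risen gene, *Cd36*, was not tested without replicate 2 or replicate 3 of 5d. It was called in the 3 left-out fits that tested it, but these kept both libraries, so they do not check its rise. The fat cell hormone *Adipoq* reached at most 0.0313 FPKM, in contrast to *Pparg* of the same list. Of the cartilage and bone list, 16 of 19 listed genes were under 1 FPKM in all 6 libraries, and the summed level was 738 to 1025 FPKM on 0d and 803 to 919.6 on 5d, so that few members held nearly all of it. There 0 of 8 tested rose and 1 fell, and the count fallen was 0 without replicate 3 of 0d. Of the neural and Schwann cell list, 9 of 16 listed genes were under 1 FPKM in all 6 libraries, and the summed level was 114 to 148 FPKM on 0d and 74.2 to 112 on 5d, and 0 of 10 tested rose and 4 fell. Of the epidermal list, 8 of 14 listed genes were under 1 FPKM in all 6 libraries, and the summed level was 31.5 to 41.1 FPKM on 0d and 10.6 to 14.1 on 5d. The part of other cells in these levels was not tested.

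Whether a change differed in PPARγ/+ cells was tested with an interaction term in a fit of the 12 libraries. In that fit, 137 of 18023 genes (0.76%) changed differently at an adjusted p of at most 0.05, and without replicate 3 of 5d 492 did (2.76%). Leaving out replicate 1 of 5d gave 150 genes, and leaving out any one of the other 10 libraries gave between 41 and 86. None of the 65 sarcomere, 73 mitosis and 80 ribosomal protein genes was called by limma, while 13, 2 and 2 had an unadjusted p of at most 0.05, as did 12% of all genes. With 0.76% called among all genes, a count of 0 in lists of this size lies near the share of all genes. *Myf5*, which fell in WT cells, stood at 3.66, 4.25 and 3.96 FPKM on 0d and 5.58, 6.27 and 8.47 on 5d in PPARγ/+ cells, and the changes differed by 2.20 ± 0.27 (SE, log2, adjusted p = 0.00844). *Igfbp2* likewise fell in WT cells but stood at 7.28, 13.6 and 12.7 FPKM on 0d and 21.4, 25 and 18 on 5d in PPARγ/+ cells, a difference of 2.61 ± 0.35 (adjusted p = 0.011). For both, WT cells had more of the transcript on 0d and the days moved in opposite directions. *Nefl* and *Nefm* were close to 0 in PPARγ/+ cells on both days, and with 0.01 in place of 0.1 FPKM added neither difference passed.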

How the data were processed

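Libraries were made from total RNA with the TruSeq RNA kit, and the deposited values are FPKM per Ensembl gene, which the authors derived with Trim Galore, STAR and HTSeq on GRCm38, while the submitters' processing notes name mm9. The strand setting of the counting is not given in the sources used here, so reads of overlapping and antisense genes cannot be told apart. Beside the genes marked in the text, *Atp2a1*, *Ccnd1* and *Spry1* share 21.9%, 23.4% and 24.4% of their exonic bases with other genes. A second deposited table holds log2(FPKM + 1), equal to the first within 5.33e-14, and was not used. The authors tested differences with DESeq2, which needs counts. Every column belonged to a sample (0 left out). Fragments per gene were recovered from the FPKM with the mapped totals given for each library and exon lengths, to a tolerance of 0.001. They came out whole for 21058 genes at the annotated length and for 6080 at an inferred length, and served only for depth, 15557940 to 22013347 fragments on genes per library, and for bounds at 3 fragments. Counting error is thus small for all but low genes.

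Genes at 0.1 FPKM or more in at least 3 of the 6 WT libraries were fitted as log2(FPKM + 0.1) with limma (3.58.1, R 4.3.3, trended prior), adjusted by Benjamini and Hochberg and called at 0.05 and 2-fold. The difference between cell types was the interaction term in a fit of all 12 libraries, with the same filter over them. Alternatives changed the pseudocount, filter, scaling, weights, block, threshold and libraries. On simulated data limma called 90 to 100% of 200 changed genes by size of change, and 8 unchanged ones, among 15760 genes, and 82 to 100%, and 13 unchanged, among 16152 for the interaction. The simulation gave a gene the same spread in every library, so it held no library that lay apart. Its changes were all larger than 2-fold and lay in genes well above the filter. These shares therefore do not give the share found in the real libraries. The genes named were the 12 that rose and the 12 that fell most without overlap and at 1 FPKM or more, key genes of each list, the called members of each list with the highest level or largest change, and *Pparg*, and the text gives a choice of them. One result is not reported here. Members and lists were chosen with earlier results of these data known. Promoters came from RefSeq (GRCm38.p6) by gene symbol or identifier. Tables were made with Python 3.11.15, numpy 2.4.6, pandas 2.3.3 and matplotlib 3.10.9.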

Additional observations from a re-analysis of the deposited data

Results flagged for a closer look

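For 5 of the genes named here WT and PPARγ/+ cells changed unequally over the 5 days, by the interaction term of limma in a fit of the 12 libraries. Each difference is the log2 fold change of the PPARγ/+ cells less that of the WT cells.

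*Myf5* differed by 2.20 ± 0.27 (SE, adjusted p = 0.00844), with log2 fold changes of -1.46 in WT and 0.74 in PPARγ/+ cells. *Igfbp2* differed by 2.61 ± 0.35 (SE, adjusted p = 0.011), with -1.64 and 0.97. *Nefl* differed by 3.98 ± 0.35 (SE, adjusted p = 0.0013) and stood at 0.0606, 0.0794 and 0.149 FPKM on 0d and 0, 0.0138 and 0 on 5d in PPARγ/+ cells. For these 3 genes the difference passed in each of the 12 fits that left out 1 library. *Nefm* differed by 2.85 ± 0.42 (SE, adjusted p = 0.0154), stood at 0.184, 0.0796 and 0.317 FPKM on 0d and 0.0250, 0.0161 and 0.0186 on 5d in PPARγ/+ cells and passed in 11 of the 12 fits, the exception being that without replicate 2 of WT_0d (adjusted p = 0.0515). *Prl2c3* differed by 3.43 ± 0.59 (SE, adjusted p = 0.028), stood at 425, 449 and 514 FPKM on 0d and 42.7, 46.2 and 79.8 on 5d in PPARγ/+ cells and passed in 3 of the 12 fits, those without replicate 2 of WT_0d, replicate 1 of WT_5d or replicate 3 of WT_5d, with adjusted p from 0.00173 to 0.0879. It fell in both cell types.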

How the results depend on the processing

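The 1450 risen and 1242 fallen genes of WT cells became 726 and 683 with 1 FPKM added in place of 0.1, and 2580 and 4192 with no fold cutoff. A filter at 1 FPKM left 861 risen genes, by its construction among fewer genes tested. Leaving out 1 library at a time gave 949 to 1370 risen and 1015 to 1332 fallen genes. The other settings for these counts (no filter, 0.01 FPKM added, a filter over 12 libraries, median-ratio scaling, quantile normalization, array weights, unadjusted p and a fit of 12 libraries) stayed within 1.5 times. The 137 genes with a difference between the cell types became 2070 with array weights, whose estimate did not fully converge, and 41 to 492 when 1 library was left out. The cause of these moves was not tested. The deviations of same-numbered libraries of 0d and 5d from their group means correlated across genes at -0.06, 0.066 and 0.1, so the numbers were not taken to pair the libraries. With the replicate number as a block 1423 genes rose and 1217 fell, and 13 genes differed between the cell types, a fit in which *Myf5* (adjusted p = 0.0549), *Igfbp2* (0.0536) and *Nefm* (0.0591) no longer passed by limma. Of the counts of list members, 59 of 312 moved by over 1.5 times with 1 library left out and 67 of 624 under the other settings. Members that were not tested in a fit were counted as not called there. No call of a gene named here in WT cells was lost outside the fits that left out a library, and no called value changed sign. Of genes that were not called, *Ccl2*, *Eno3*, *Ifit1*, *Lox*, *Mt1*, *Myf6* and *Notch3* took the other sign in at least 1 alternative, with values from -0.18 to 0.31. Depth limits the least expressed genes, and levels of 3 fragments or fewer were given as a bound.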
